A study of Mus musculus with 4 samples.

Results

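The genes described here are 49 genes of the actin cytoskeleton and of the programme driven by serum response factor (SRF), given as a fixed list of symbols and looked up through the RefSeq identifiers of the deposited transcripts. All 49 were found, 48 under the listed symbol and Mkl1 under its later symbol Mrtfa, among 17125 named genes of the series. They were taken in 6 groups by role: the actins and the intermediate filament Vim (3 genes), contractile genes (11), adhesion and membrane linkage (11), nucleation and branching (9), turnover, capping and bundling (10), and control of the SRF programme (5). The series held 4 RNA-seq libraries of N2A cells, a mouse neuroblastoma line grown with 10% serum. One library was transfected with a control shRNA (shControl), one with an shRNA against Ptbp1, one with an shRNA against Ptbp2, and one with both shRNAs. The same 5 hours of transfection and 3 days of culture are given for all 4, and no label names a clone or a selection step. Whether the 4 were transfected or sequenced together is not known here. The share of cells that took up the shRNA is not given in the sources used here. With 1 library per group no spread between replicates could be measured, so every difference below is a difference between libraries and carries no test. In bulk RNA, fewer cells of a type and less RNA per cell cannot be told apart.

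PTBP1 and PTBP2 are RNA-binding proteins that bind pyrimidine-rich stretches of pre-mRNA and mostly repress the exons beside them; PTBP1 is the form of most dividing cells and PTBP2 that of differentiating neurons. Cytoplasmic actins polymerise into filaments that are nucleated by the Arp2/3 complex, elongated with the help of profilins, capped by capping protein and disassembled by cofilins. SRF binds a DNA element called the CArG box in the promoters of many of these genes. Its cofactor MKL1 is held in the cytoplasm by unpolymerised actin, so that polymerisation releases it to the nucleus and raises actin gene transcription.

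The CArG box (CC, then 6 bases that are A or T, then GG, which reads the same on both strands) was searched in RefSeq promoter windows of GRCm38.p6, from 250 bases before to 50 bases after each gene's start. Of the 49 genes, 43 had an entry, and 7 of these (16.3%) held a box, against 1.81% of the 27025 genes in the table and 1.63% of its 32851 windows. The list was drawn up to hold genes of the SRF programme, so a larger share can follow from that choice and is not a result of these data. The 7 are shown because they are the members with the SRF element in the window; the capitals mark the box and the other letters are its surroundings, 5′ to 3′ on the gene's own strand.
Myl9 (chr2:156775283-156775332, plus strand): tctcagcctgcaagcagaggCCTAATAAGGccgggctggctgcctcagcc
Cnn2 (chr10:79988524-79988573, plus strand): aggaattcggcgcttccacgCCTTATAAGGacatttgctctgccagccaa
Myl6 (chr10:128493030-128493079, minus strand): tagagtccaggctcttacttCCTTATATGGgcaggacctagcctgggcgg
Actg1 (chr11:120348556-120348605, minus strand): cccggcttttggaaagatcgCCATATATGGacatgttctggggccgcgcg
Vcl (chr14:20929151-20929200, plus strand): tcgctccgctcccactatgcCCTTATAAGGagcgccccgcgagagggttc
Lima1 (chr15:99820167-99820216, minus strand): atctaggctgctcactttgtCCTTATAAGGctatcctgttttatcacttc
Srf (chr17:46556195-46556264, minus strand): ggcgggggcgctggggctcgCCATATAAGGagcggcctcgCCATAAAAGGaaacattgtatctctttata
All boxes lay before the start, from 37 bases (Lima1) to 217 bases (Vcl) upstream by their near end, and Srf itself held 2 of them. A match describes letters in this window and is not a measured site of binding. Tmod3, Actb, Cttn, Rock1, Coro1b and Plec had no entry in the table.

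Reads on named exons numbered 210.848 to 262.392 M (mega) per library, and reads over exon junctions 58.28 to 74.37 M. Levels are scaled exon reads, in reads per M reads after scaling the libraries by the median of ratios (CPM), and differences are log2(CPM + 0.1) against control; FPKM, rescaled within each library, is the second measure. Ptbp1 stood at 29.1%, 113% and 22.4% of its control level in the Ptbp1, Ptbp2 and double knockdown. Ptbp2 stood at 195%, 26.8% and 42.2%, so Ptbp2 was higher than control where Ptbp1 alone was targeted. Neuroblast markers were present in all 4 libraries, with 11 of 14 measured and a summed level of 1458 to 1884 CPM; Nefl and Nefm were under 1 CPM. Single markers differed between the libraries: Dbh, an enzyme of noradrenaline synthesis, had 45.9, 172, 17.0 and 48.3 CPM in control, the Ptbp1, Ptbp2 and double knockdown, and Th, of the same pathway, 0.584, 3.10, 0.144 and 0.907. The neurotrophin receptor Ngfr had 175, 122, 55.2 and 53.0 CPM and Stmn2, a neuronal microtubule regulator, 169, 111, 112 and 71.0, in the same order. Of the 11 measured markers, 3, 2 and 1 were at least 1.5-fold higher in the Ptbp1, Ptbp2 and double knockdown, against 8.23%, 3.72% and 6.01% of all genes. In the same order 1, 6 and 2 were lower, against 5.23%, 8.58% and 6.99%. The median log2 differences of the 11 were 0.09, -0.59 and -0.075. The part of these markers in the differences below was not tested. Summed fibroblast markers were 4.97, 10.4, 3.07 and 4.70 CPM in control, the Ptbp1, Ptbp2 and double knockdown. The 2 fibroblast markers with a mean of at least 1 CPM were both at least 1.5-fold higher in the Ptbp1 knockdown. Their median log2 differences were 1.149, -0.672 and -0.046 in the 3 knockdowns. Summed markers of other cell types were 1.46 to 2.95 CPM for smooth muscle, 3.45 to 4.37 for endothelium, 0.0296 to 0.0919 for macrophages, 0.159 to 0.389 for epithelium and 3.23 to 5.15 for glia. All 5 smooth muscle markers were under 1 CPM in control. Of these, Acta2 and Cnn1 were at 0 in the Ptbp1 knockdown and at most 0.368 CPM in the others. The 1 smooth muscle marker with a mean of at least 1 CPM was higher than control in the Ptbp1, Ptbp2 and double knockdown, by 0.855, 1.2 and 1.115 (log2). The marker sums compare with 20652, 13415, 18894 and 13872 CPM for the 49 genes together in control, the Ptbp1, Ptbp2 and double knockdown.

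Most of the 49 genes were lower than control in each library that received the Ptbp1 shRNA, 43 in the Ptbp1 knockdown and 42 in the double knockdown. Of all 10613 genes measured, 6054 and 5628 were lower, and the share was larger among abundant genes, as given below. The members at least 1.5-fold lower in both were Actb, Actg1, Vim, Cald1, Tmod3, Iqgap1, Lima1 and Dstn. In the Ptbp1 knockdown, 15 of 49 genes were at least 1.5-fold lower, against 5.23% of all 10613 genes with a mean of at least 1 CPM, and 1 (Gsn) was at least 1.5-fold higher, against 8.23%. Of the 15, 5 were at least 2-fold lower (Actg1, Cnn2, Cald1, Tmod3 and Iqgap1), against 0.349% of all genes, and none was 2-fold higher, against 2.6%. In the double knockdown, 13 were at least 1.5-fold lower, against 6.99%, and 6 of these at least 2-fold (Vim, Cald1, Tmod3, Tln1, Iqgap1 and Lima1), against 1.4%. None was 1.5-fold or 2-fold higher there, against 6.01% and 1.24% of all genes.

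In the Ptbp2 knockdown, none of the 49 passed 2-fold in either direction, against 0.565% of all genes higher and 1.95% lower. At 1.5-fold, Myl9, Cnn2 and Zyx were higher, against 3.72%, and Msn, Actr2, Dstn, Pfn2, Capza2 and Rock1 were lower, against 8.58%; the 6 lower genes are 12.2% of the list, near the background share. Over the 49 genes, the median log2 difference was -0.44, -0.12 and -0.31 in the Ptbp1, Ptbp2 and double knockdown, beside -0.066, -0.005 and -0.027 over all genes. Genes below 0 numbered 43, 30 and 42 of 49, beside 6054, 5363 and 5628 of all 10613. These counts over all genes are also the comparison for the counts by role below.

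The abundance of these genes and the scaling of the libraries bear on these counts. Abundant genes as a class were lower in the Ptbp1 knockdown: among the 2490 genes with a mean of at least 100 CPM the median was -0.23, and 7.67% were 1.5-fold lower. Of the 34 listed genes in that class, 9 (26.5%) were 1.5-fold lower, with a median of -0.44, and 0 were higher, against 0.522% of the class. In the double knockdown the class had a median of -0.12 and 5.94% 1.5-fold lower, while 10 of the 34 were, with a median of -0.33, and 0 were higher, against 0.803%. In the Ptbp2 knockdown the values were -0.019 and 4.98% for the class, and -0.12 and 3 of 34 for the listed genes, with 1 higher (Zyx), against 0.843%. Genes of the class below 0 numbered 2029, 1325 and 1728 of 2490 in the Ptbp1, Ptbp2 and double knockdown. Among the 34 listed genes they numbered 32, 22 and 31. Another scaling shifted every difference. With total exon reads in place of the median of ratios, the median over all genes was 0.15 in the Ptbp1 knockdown and 0.12 in the double knockdown, and the share of higher genes among those past 2-fold went from 88.2% to 98.3% and from 47.0% to 72.2%. The listed genes then had medians of -0.22 and -0.17 with 37 and 34 of 49 below 0, and Iqgap1, Tmod3 and Cnn2 stayed at least 2-fold lower in the Ptbp1 knockdown and Iqgap1, Tmod3 and Tln1 in the double knockdown. Relative to the median of all genes, which a change of scaling moves along with them, their median was -0.371 and -0.285 (log2), with 42 of 49 below it in each comparison.

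**Figure D1:**
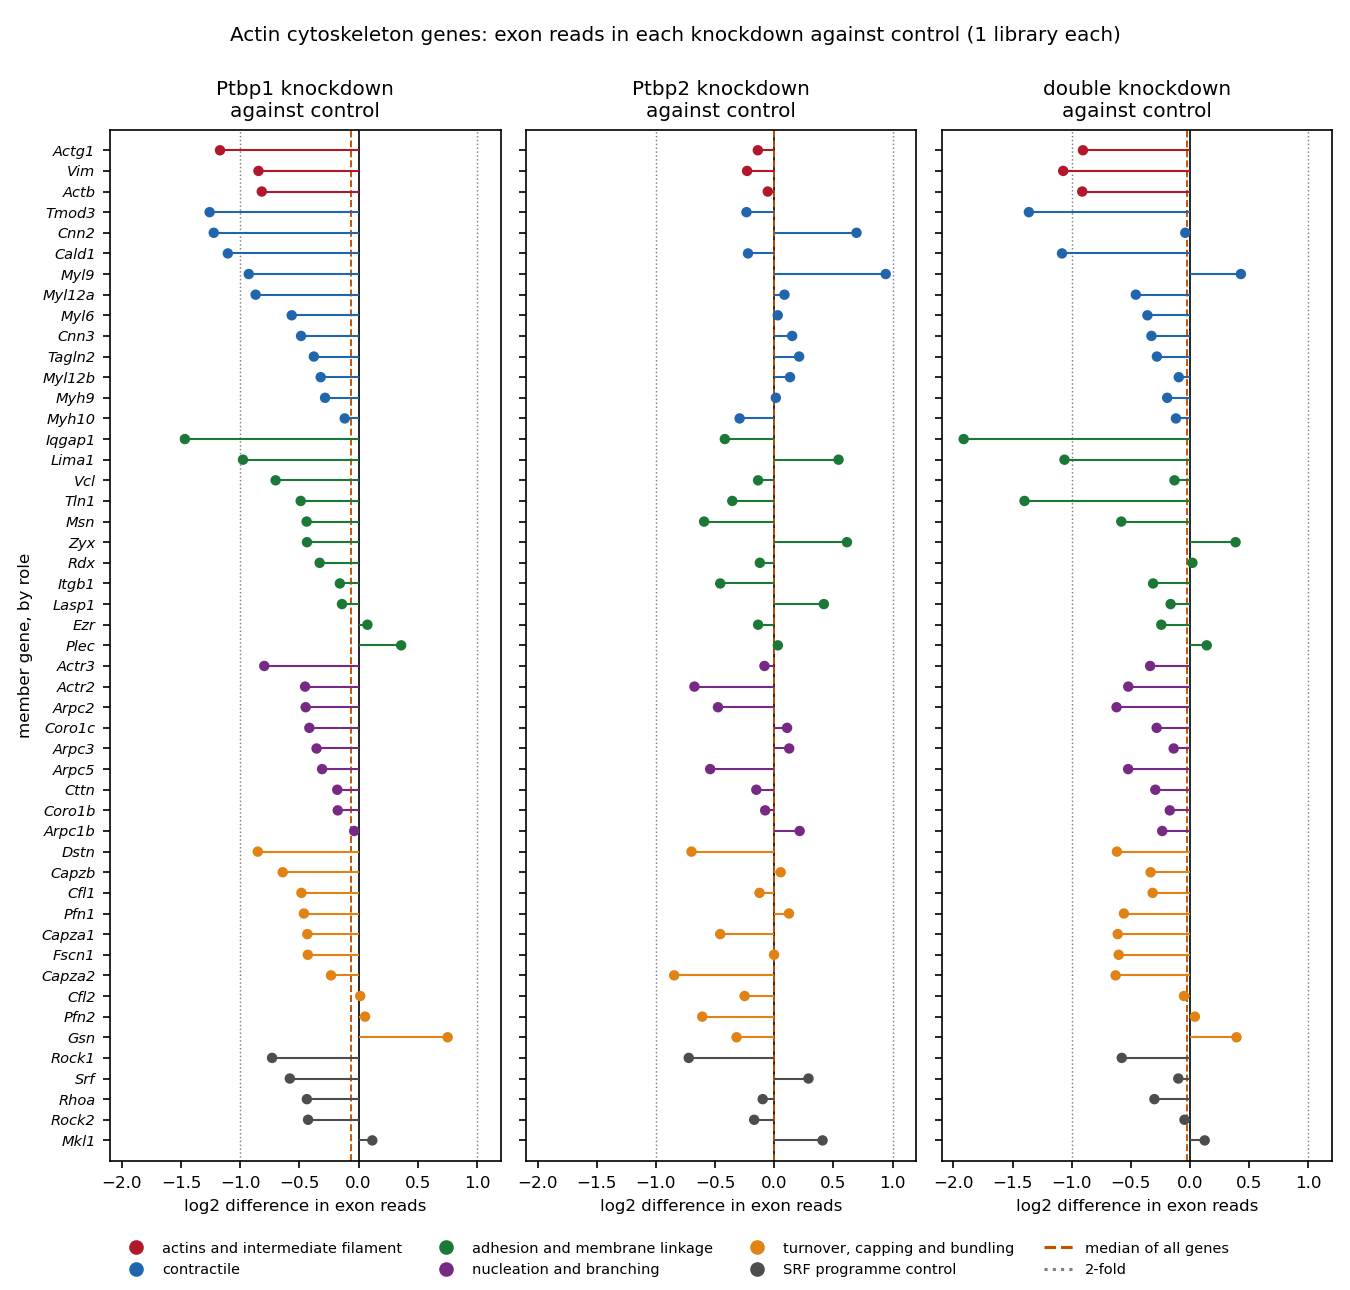
Log2 difference in scaled exon reads between each knockdown and control (x axis) for the 49 genes (y axis), 1 point per gene, coloured by role and ordered within each role by the Ptbp1 knockdown; the dashed line is the median of all genes and the dotted lines mark 2-fold. In the Ptbp1 and double knockdown 43 and 42 of 49 points lie left of 0, with Iqgap1 farthest left at -1.47 and -1.91, while in the Ptbp2 knockdown no point reaches a dotted line.

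The actins and vimentin were among the most abundant genes of these cells: by FPKM in control, Actb ranked 2, Actg1 8 and Vim 32 of 14340 genes. Actb, one of the 2 cytoplasmic actins, had 3230 CPM in control and 1832, 3108 and 1717 in the Ptbp1, Ptbp2 and double knockdown. The Ptbp1 and double knockdown lay close together and below the other 2 libraries, at 1.76-fold and 1.88-fold under control. Actg1, the other cytoplasmic actin, had 3691 CPM in control, 1639 and 3352 in the Ptbp1 and Ptbp2 knockdown, and 1971 in the double knockdown, which was 2.25-fold lower in the Ptbp1 knockdown and 1.87-fold lower in the double knockdown. Among all genes its difference in the Ptbp1 knockdown was the 12th lowest of 10613. Vim, the intermediate filament protein of mesenchymal and many cultured cells, had 1441, 802, 1229 and 685 CPM in control, the Ptbp1, Ptbp2 and double knockdown, or 1.80-fold and 2.10-fold lower. With Ptbp2 depleted alone the 3 genes stood at 85.3% to 96.2% of control. In sum the 3 genes took 8363 CPM in control and 7689 in the Ptbp2 knockdown, but 4274 and 4374 in the Ptbp1 and double knockdown. Both actins have many processed copies elsewhere in the genome and nearly the same coding sequence as each other, so how reads were shared between them and their copies is uncertain. The 3 genes were lower under each scaling tried, in both libraries.

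All 11 contractile genes were below control in the Ptbp1 knockdown (10 of 11 with total-read scaling), with a median of -0.57, and 5 of them by at least 1.5-fold. Tmod3, which caps the pointed ends of filaments, had 118 CPM in control, against 49.1 with the Ptbp1 shRNA, 99.9 with the Ptbp2 shRNA and 45.7 with both, 2.39-fold lower in the Ptbp1 knockdown and 2.57-fold lower in the double knockdown. Cald1 (caldesmon, which binds actin and restrains myosin) had 112 CPM in control and 52.0, 96.0 and 52.9 in the Ptbp1, Ptbp2 and double knockdown, 2.15-fold and 2.12-fold lower. The libraries with the Ptbp1 shRNA were alike for both genes, and the Ptbp2 knockdown was near control. Cnn2 (calponin 2, an actin-binding protein linked to contractility) followed another order, with 67.7 CPM in control, 28.9 and 109.6 in the Ptbp1 and Ptbp2 knockdown, and 65.8 in the double knockdown. It was 2.34-fold lower with Ptbp1 depleted alone, 1.62-fold higher with Ptbp2 depleted alone, and 97.2% of control with both. Myl9, a regulatory light chain typical of smooth muscle, had 3.45 FPKM in control, against 35.1 for Cnn2, and the same order of the single knockdowns, with 4.47, 2.30, 8.69 and 6.06 CPM in control, the Ptbp1, Ptbp2 and double knockdown. Its exon reads numbered 1095, 526, 2052 and 1637, so it was 1.90-fold lower, 1.92-fold higher and 1.35-fold higher than control. Myl12a, the non-muscle regulatory light chain, had 215 CPM in control, against 118 with the Ptbp1 shRNA, 228 with the Ptbp2 shRNA and 157 with both, 1.83-fold lower in the Ptbp1 knockdown; it has a near-identical neighbour, Myl12b, at 80.1% of control there, and the split of reads between them is uncertain. The remaining genes stayed within 1.5-fold in all 3 comparisons. They were Myl12b, Tagln2, Cnn3, the non-muscle myosin heavy chains Myh9 and Myh10, and the essential light chain Myl6, which had 684 CPM in control and 462, 698 and 533 in the Ptbp1, Ptbp2 and double knockdown. With Ptbp2 depleted alone 8 of the 11 were above control, with a median of 0.086.

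**Figure D2:**
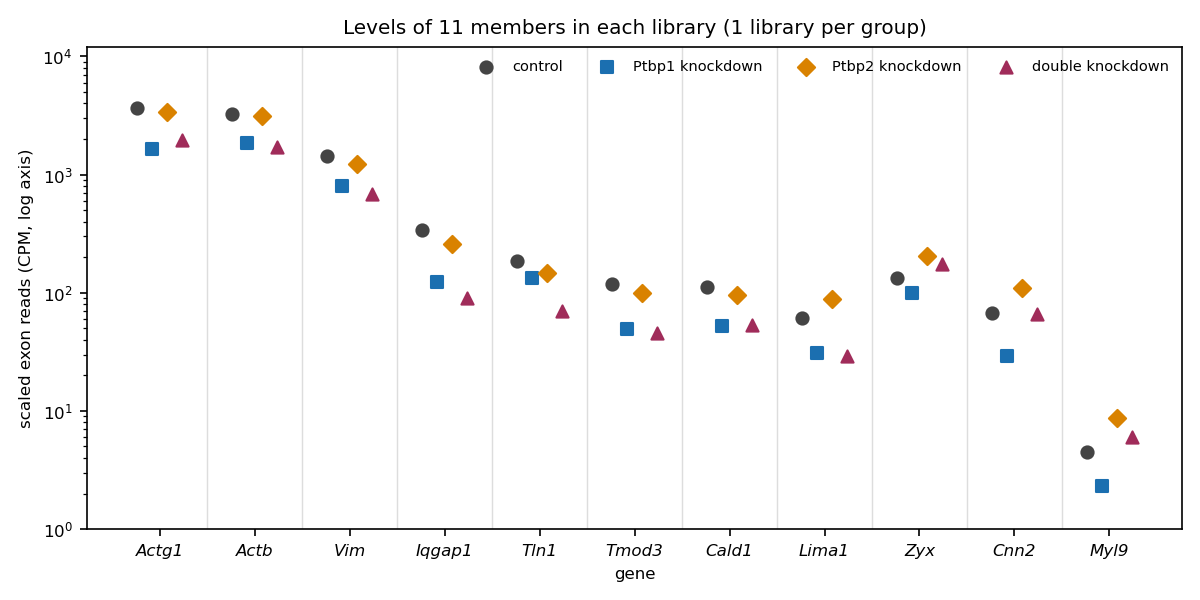
Scaled exon reads in CPM (y axis, log scale) of 11 members (x axis) in the control, Ptbp1 knockdown, Ptbp2 knockdown and double knockdown libraries, 1 point per library; CPM is not corrected for gene length, so libraries are to be compared within a gene. For Actb, Actg1, Vim, Iqgap1, Tmod3, Cald1 and Lima1 the Ptbp1 and double knockdown points lie below both others, for Tln1 the double knockdown alone stands apart at 70.6 CPM, and for Cnn2 and Myl9 the Ptbp2 knockdown is highest and the Ptbp1 knockdown lowest.

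The 11 genes of adhesion and membrane linkage held the largest single difference of the 49 genes. Iqgap1, a scaffold that links actin filaments to Rac and Cdc42 signalling and to cell contacts, had 343 CPM in control, 124 and 256 in the Ptbp1 and Ptbp2 knockdown, and 90.9 in the double knockdown. It was 2.77-fold lower in the Ptbp1 knockdown and 3.77-fold lower in the double knockdown, and 1.34-fold lower in the Ptbp2 knockdown. Its ranks from the lowest were 4 and 3 of 10613 in the first 2 comparisons. Tln1 (talin 1, which joins integrins to actin) had 186, 133, 146 and 70.6 CPM in control, the Ptbp1, Ptbp2 and double knockdown; the single knockdowns were 1.40-fold and 1.28-fold lower and the double knockdown 2.64-fold lower. Lima1, a LIM protein that stabilises filaments, had 60.6 CPM in control, against 30.7 with the Ptbp1 shRNA, 88.3 with the Ptbp2 shRNA and 29.0 with both, 1.97-fold lower with the Ptbp1 shRNA, 1.46-fold higher with the Ptbp2 shRNA and 2.09-fold lower with both. Vcl (vinculin, of focal adhesions) had 174 CPM in control and 107, 158 and 159 in the Ptbp1, Ptbp2 and double knockdown, and the Ptbp1 knockdown alone was past 1.5-fold, at 1.63-fold lower. Its log2 difference there went from -0.70 to -0.49, under the threshold, with total-read scaling. Zyx (zyxin, a focal adhesion and stress fibre protein) had 134 CPM in control, 99.3 and 206 in the Ptbp1 and Ptbp2 knockdown, and 176 in the double knockdown, 1.35-fold lower in the Ptbp1 knockdown and 1.53-fold higher in the Ptbp2 knockdown. Msn (moesin, a membrane linker) had 119, 88.0, 79.1 and 79.8 CPM in control, the Ptbp1, Ptbp2 and double knockdown, with all 3 knockdowns lower and alike; its difference in the Ptbp2 knockdown was 1.51-fold, and under the threshold with total-read scaling (-0.55). Its relatives Ezr and Rdx, the LIM protein Lasp1, the integrin Itgb1 and the cytolinker Plec stayed within 1.5-fold, and Plec had 166 CPM in the Ptbp1 knockdown against 129 in control.

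All 9 nucleation and branching genes were below control in the Ptbp1 knockdown and all 9 in the double knockdown, with medians of -0.36 and -0.29; with total-read scaling 6 and 8 were. Actr3 (the ARP3 subunit of the Arp2/3 complex) had 409 CPM in control, against 235 with the Ptbp1 shRNA, 386 with the Ptbp2 shRNA and 323 with both, 1.74-fold lower in the Ptbp1 knockdown. Actr2 (ARP2) had 383 CPM in control and 279.9, 239.8 and 267 in the Ptbp1, Ptbp2 and double knockdown, and was lowest in the Ptbp2 knockdown, by 1.60-fold. Arpc2, a subunit that holds the 2 actin-related proteins together, had 574 CPM in control, 421 and 412 in the Ptbp1 and Ptbp2 knockdown, and 373 in the double knockdown, 1.54-fold lower in the double knockdown. The subunits of 1 complex thus did not share an order over the libraries. With total-read scaling Actr3 in the Ptbp1 knockdown (-0.58) and Arpc2 in the double knockdown (-0.48) were under the 1.5-fold threshold. Arpc1b, Arpc3, Arpc5, the coronins Coro1b and Coro1c and cortactin (Cttn), which stabilises branches, stayed within 1.5-fold, between 68.7% and 116% of control.

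Among the 10 turnover, capping and bundling genes, 7 were below control in the Ptbp1 knockdown and 8 in each other comparison (7 in all 3 with total-read scaling). Dstn (destrin, of the cofilin family) had 360.3, 199.6, 222 and 235 CPM in control, the Ptbp1, Ptbp2 and double knockdown, and was the single member at least 1.5-fold lower in all 3 knockdowns, by 1.81-fold, 1.62-fold and 1.54-fold. The 3 comparisons share the control library, and the share of all genes lower in all 3 was not counted. The subunits of capping protein, which blocks barbed ends, differed in which library was lowest. Capzb had 692 CPM in control, against 444 with the Ptbp1 shRNA, 719 with the Ptbp2 shRNA and 549 with both, and was lowest with Ptbp1 depleted alone (1.56-fold). Capza2 had 194 CPM in control and 165, 108 and 125 in the Ptbp1, Ptbp2 and double knockdown, and was lowest with Ptbp2 depleted alone (1.80-fold). Capza1 had 205 CPM in control, 152 and 149 in the Ptbp1 and Ptbp2 knockdown, and 134 in the double knockdown, and was lowest with both depleted (1.53-fold). Fscn1 (fascin, which bundles filaments in protrusions) had 421, 312, 419.8 and 277 CPM in control, the Ptbp1, Ptbp2 and double knockdown, 1.52-fold lower in the double knockdown. Pfn2, the neuronal profilin, had 92.4 CPM in control, against 96.1 with the Ptbp1 shRNA, 60.6 with the Ptbp2 shRNA and 95.1 with both, with the Ptbp2 knockdown 1.53-fold under control and the other 3 libraries between 92.4 and 96.1 CPM. The main cofilin Cfl1 and profilin Pfn1 stayed within 1.5-fold, at 71.5% and 72.6% of control in the Ptbp1 knockdown. With total-read scaling 6 of these differences dropped under 1.5-fold: Capzb in the Ptbp1 knockdown (-0.43), Pfn2 in the Ptbp2 knockdown (-0.57), and Dstn (-0.47), Capza1 (-0.47), Capza2 (-0.48) and Fscn1 (-0.46) in the double knockdown. Gsn (gelsolin, which severs filaments) was the single member above 1.5-fold in the Ptbp1 knockdown, and its level was low, at 1.13 FPKM in control. It had 2.44 CPM in control and 4.19, 1.94 and 3.24 in the Ptbp1, Ptbp2 and double knockdown, from 598, 956, 458 and 875 exon reads.

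Of the genes that control the programme, Srf had 62.8 CPM in control, 42.0 and 76.8 in the Ptbp1 and Ptbp2 knockdown, and 58.6 in the double knockdown, which gave a log2 difference of -0.58 in the Ptbp1 knockdown, just under the 1.5-fold threshold, and was 1.22-fold higher in the Ptbp2 knockdown. Mkl1, its actin-regulated cofactor, had 53.4, 57.9, 70.9 and 58.2 CPM in control, the Ptbp1, Ptbp2 and double knockdown, so it was between 108% and 133% of control in every knockdown. Rock1, a kinase that promotes myosin contraction, had 138 CPM in control, against 83.2 with the Ptbp1 shRNA, 83.7 with the Ptbp2 shRNA and 92.6 with both, with all 3 knockdowns close together at 1.66-fold, 1.65-fold and 1.49-fold lower; with total-read scaling the first was -0.52 on the log2 scale, under the threshold. Rhoa and Rock2 stayed within 1.5-fold.

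Set side by side, the double knockdown differed from the Ptbp1 knockdown by at least 2-fold in 2 of the 49 genes, both higher (Myl9, 2.56-fold, and Cnn2, 2.27-fold), against 0.122% of all genes higher. At 1.5-fold, Zyx was also higher (1.77-fold), against 2.58%, and Tln1 was lower (1.88-fold), against 7.18%. Compared with the Ptbp2 knockdown, the double knockdown was at least 2-fold lower in Tmod3 (2.18-fold), Tln1 (2.06-fold), Iqgap1 (2.82-fold) and Lima1 (3.04-fold), against 0.622% of all genes. At 1.5-fold, 11 genes were lower, the 3 actin and vimentin genes among them, against 3.52%, and 2 (Pfn2 and Gsn) were higher, against 6.48%. The median over the 49 genes was 0.006 against the Ptbp1 knockdown and -0.23 against the Ptbp2 knockdown, beside 0.037 and -0.005 over all genes.

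By the mean absolute difference in log2 change over the 3 comparisons, which share the control library, the members most like Actb were Vim (0.12), Actg1 (0.15) and Actr3 (0.21). Those most like Actg1 were Cald1 (0.11), Actb (0.15) and Vim (0.19).

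The 7 genes with a CArG box were all below control in the Ptbp1 knockdown, with a median of -0.93 and a range from -1.22 to -0.57. Of the 36 members whose window held none, 31 were below control there, with a median of -0.43. In the Ptbp2 knockdown the 7 had a median of 0.29, with 2 below control, against -0.13 and 23 in the 36. In the double knockdown the median was -0.13, with 6 of the 7 below control, against -0.31 and 31 in the 36. Cnn2, Myl9, Lima1, Srf and, by a small margin, Myl6 were above control in the Ptbp2 knockdown and below it in the Ptbp1 knockdown. The same order was seen in Myl12a, Myl12b, Myh9, Cnn3, Tagln2, Zyx, Lasp1, Arpc1b, Arpc3, Coro1c, Pfn1 and Capzb, whose windows held none. Of these, Myh9, Capzb and Myl12a were above control in the Ptbp2 knockdown by small margins (0.013, 0.054 and 0.086). By FPKM these genes were below control there (-0.019, -0.067 and -0.043). The share of all genes with this order was not counted, and any part of the box in it was not tested. In the double knockdown the 5 with a box spread from 47.8% (Lima1) to 136% of control (Myl9).

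Exon by exon, the low values were spread along the genes. Exons with a mean of at least 100 scaled reads were measured. They were told apart by their coordinates, so overlapping forms of 1 exon count separately and share reads. The counts below are therefore not counts of independent exons. Every measured exon was below control in both the Ptbp1 and the double knockdown for Actb (6 exons), Actg1 (7), Vim (10), Cald1 (15), Tmod3 (10) and Iqgap1 (41). For Iqgap1 the exons ranged from -1.85 to -0.77 in the Ptbp1 knockdown and from -2.35 to -1.27 in the double knockdown. For Tln1, all 57 exons were below control in the double knockdown, with a median of -1.41, and 56 of 57 in the Ptbp1 knockdown, with a median of -0.50. All 7 exons of Cnn2 were below control in the Ptbp1 knockdown, from -1.33 to -1.15, and above it in the Ptbp2 knockdown, from 0.62 to 0.75. The exons of a gene come from the same libraries and are not replicates.

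**Figure D3:**
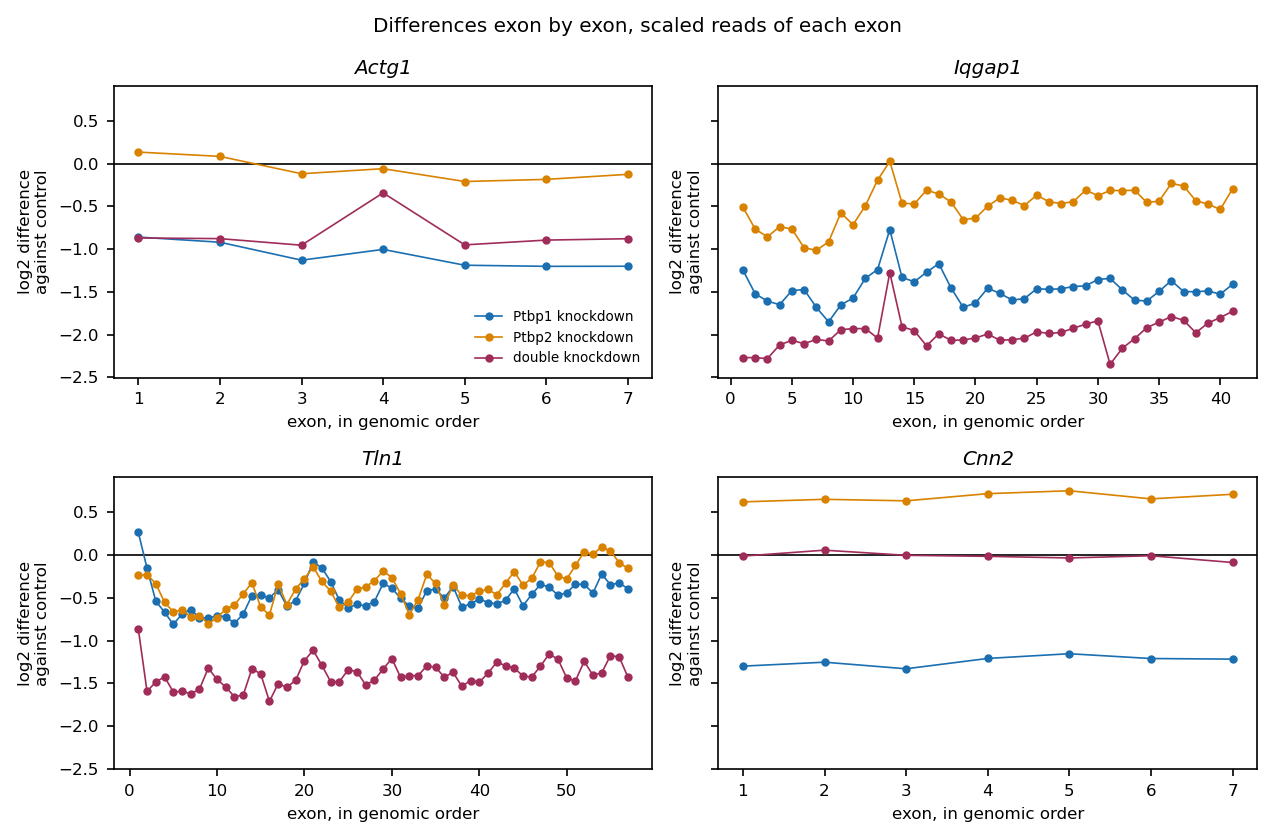
Log2 difference in scaled reads of each exon against control (y axis) for Actg1, Iqgap1, Tln1 and Cnn2, 1 line per knockdown library. The x axis, labelled genomic order, gives the exon's order along the gene from 5′ to 3′ on its own strand. Exons are told apart by their coordinates and can overlap. For Iqgap1 the double knockdown is lowest at every exon. For Tln1 the single knockdowns overlap each other and the double knockdown lies below both (median -1.41), and Cnn2 is near 0 in the double knockdown, between -0.085 and 0.059.

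By FPKM, the second measure, 48 of the 49 genes passed the limit of 3 FPKM; Gsn did not. In the Ptbp1 knockdown 6 were at least 2-fold lower (Actg1, Myl6, Cnn2, Tmod3, Iqgap1 and Actr3), against 1.17% of 9580 genes, and none 2-fold higher, against 2.07%. In the double knockdown 4 were (Myl6, Cald1, Tln1 and Iqgap1), against 1.63%, and in the Ptbp2 knockdown 1 (Myl6), against 2.22%. None was 2-fold higher in these, against 1.83% and 1.39%. Members had median log2 differences of -0.33, -0.016 and -0.20 in the Ptbp1, Ptbp2 and double knockdown, beside 0.039, 0.021 and 0.069 over all genes. Actb had 1971, 1182, 1988 and 1122 FPKM in control, the Ptbp1, Ptbp2 and double knockdown, and Vim 500.2, 307, 507 and 284. As by exon reads, the Ptbp1 and double knockdown lay below the other 2 libraries; by FPKM the Ptbp2 knockdown was slightly above control, and by exon reads below it. The measures differed by more than 1.5-fold in at least 1 comparison for Actg1, Myl6, Cttn, Capza1, Cfl2, Rhoa, Tmod3 and Iqgap1. Actg1 had 1161, 332, 625 and 695 FPKM, so that the Ptbp2 knockdown was 1.86-fold lower by FPKM and at 90.8% of control by exon reads. Myl6 had 258, 14.9, 117 and 18.2 FPKM, against 684, 462, 698 and 533 CPM in exon reads, and 2 transcripts had been assembled for it in control but 1 in each knockdown. Cttn went from 73.9 to 38.4 FPKM in the double knockdown with 5 transcripts assembled in control and 1 there, while its exon reads were at 81.6%. Capza1 was above control by FPKM in all 3 knockdowns and below it by exon reads, with 1 assembled transcript in control and 3 in each knockdown. Iqgap1 in the double knockdown was 2.32-fold lower by FPKM (37.3 to 15.5) and 3.77-fold by exon reads, and Tmod3 1.52-fold (33.9 to 21.9) and 2.57-fold. Cfl2 was 1.94-fold higher by FPKM there (38.8 to 76.4), with 3 transcripts assembled in control and 6 there, and at 96.5% of control by exon reads. Rhoa went from 83.7 to 100.6 FPKM in the Ptbp1 knockdown and was at 73.9% of control by exon reads there. For these genes exon reads, which use the same exons in each library, were taken as the level.

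**Figure D4:**
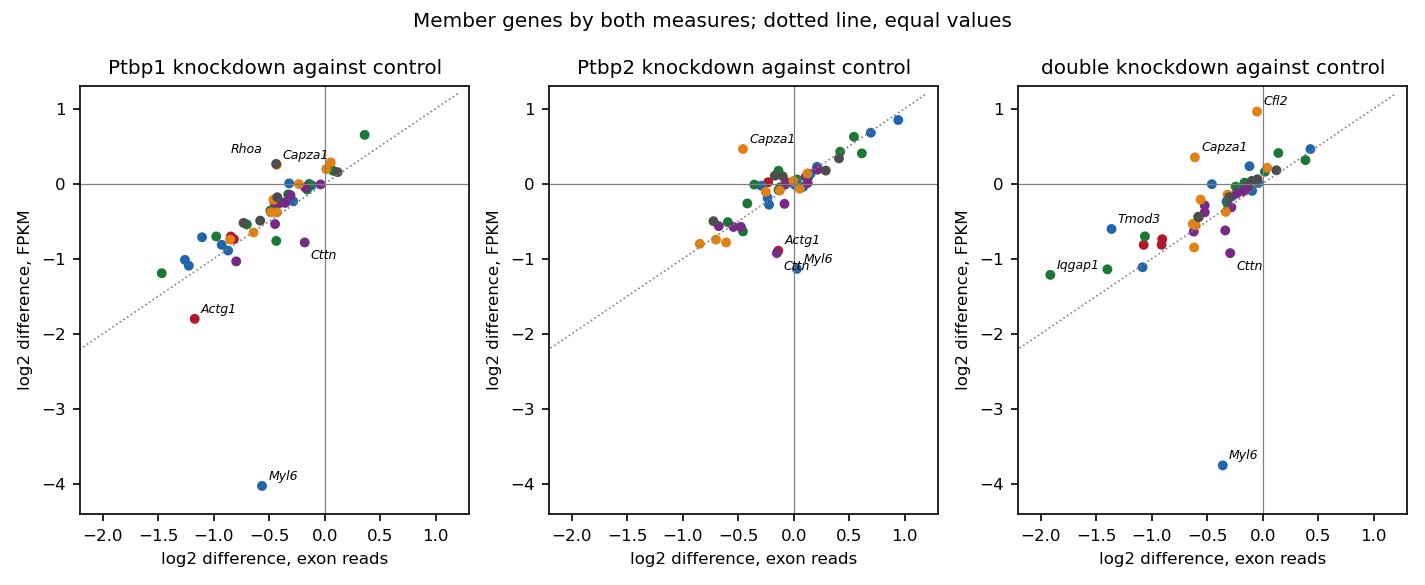
Log2 difference against control by exon reads (x axis) and by FPKM (y axis) for the 48 genes with both, 1 panel per knockdown and 1 point per gene, coloured by role as in the plot of log2 differences by role; the dotted line marks equal values and genes at least 0.6 from it are named. Most points lie near the line, and Myl6 lies far below it in the Ptbp1 and double knockdown, at -4.03 and -3.75 by FPKM.

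Alternative exons were looked at by junction inclusion, the mean of the reads over both inclusion junctions as a share of that mean plus the skipping reads. The 49 genes held 625 cassette events on the fixed exon list, and 587 of these, in 48 genes, had at least 20 such reads in every library. Of the 587, 565 were included at 95% or more in all 4 libraries and 574 differed from control by under 5 percentage points throughout. Differences of at least 20 points were seen for 2 exons in the Ptbp1 knockdown (Plec and Cttn), both higher, and 2 in the double knockdown (both in Plec), both higher, and for none in the Ptbp2 knockdown. Over all events, 0.238% were past 20 points higher and 0.11% lower in the Ptbp1 knockdown, with 0.0383% and 0.137% for the Ptbp2 knockdown and 0.321% and 0.233% for the double knockdown. The members' 2 of 597 (0.335%) and 2 of 589 (0.34%) were near those backgrounds. At 10 points or more, 2 exons were higher in the Ptbp1 knockdown (Plec and Cttn), against 0.594% of all events, and 2 lower (Zyx and Cald1), against 0.552%. In the Ptbp2 knockdown 1 was higher (Cald1), against 0.254%, and 1 lower (Cttn), against 0.692%. The double knockdown had 3 higher (Actr2 and both in Plec), against 0.705%, and 1 lower (Zyx), against 0.845%. These are 6 exons in all, and 95% Wilson intervals, which cover counting error only, are given for them.

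All of these but the Actr2 exon are printed below with 20 coding bases on each side, from GENCODE M21 transcripts, which are on GRCm38; capitals mark the alternative exon. An exon of Myl6, described after them, is printed with its coding bases and the 20 before them. Their positions are on mm9, the build of the files.
Plec, 15 nucleotides: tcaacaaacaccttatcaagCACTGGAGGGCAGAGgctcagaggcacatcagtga
Plec, 36 nucleotides: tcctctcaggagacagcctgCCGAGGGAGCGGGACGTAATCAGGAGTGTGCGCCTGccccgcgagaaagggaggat
Cttn, 111 nucleotides: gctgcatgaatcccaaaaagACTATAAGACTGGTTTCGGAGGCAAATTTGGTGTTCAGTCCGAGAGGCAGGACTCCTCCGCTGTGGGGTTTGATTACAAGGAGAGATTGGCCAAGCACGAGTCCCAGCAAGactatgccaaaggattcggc
Cald1, 84 nucleotides: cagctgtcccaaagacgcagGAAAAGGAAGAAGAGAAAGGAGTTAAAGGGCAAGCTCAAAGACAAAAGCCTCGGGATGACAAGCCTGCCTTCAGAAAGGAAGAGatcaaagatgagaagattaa
Zyx, 93 nucleotides: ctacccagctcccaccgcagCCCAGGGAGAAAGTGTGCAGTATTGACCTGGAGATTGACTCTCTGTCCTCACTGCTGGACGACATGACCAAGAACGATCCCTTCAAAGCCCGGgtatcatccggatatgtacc
Myl6, 45 nucleotides: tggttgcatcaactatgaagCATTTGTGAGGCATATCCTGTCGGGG
Both Plec exons keep the reading frame and lie in the part of plectin that encodes its actin-binding domain. The 15-nucleotide Plec exon (chr15:76024989-76025003, minus strand) was included at 4.67% in control (2.01 to 10.5), 39.7% with the Ptbp1 shRNA (29.3 to 51.2), 2.19% with the Ptbp2 shRNA (0.81 to 10.1) and 62.5% with both (52.1 to 71.9). Its reads came from 1 of the inclusion junctions, with 10, 58, 3 and 110 reads beside 102, 44, 67 and 33 that skipped it, and the other inclusion junction had 0 in every library, so the percentages are too low if that junction could not be counted. The deposited SpliceTrap ratio was 8.9%, 55.1%, 4.5% and 75.6%. The 36-nucleotide Plec exon (chr15:76024396-76024431, minus strand) had 0 inclusion reads and 146 skipping reads in control, where a count of 0 allows an inclusion of up to 2.05% by the limit of 3 counts, and up to 2.56% by the Wilson interval. It was at 5.66% with the Ptbp1 shRNA (3.10 to 11.5), 0.518% with the Ptbp2 shRNA (0 to 3.85) and 28.7% with both (20.3 to 39.0), the last from 32 and 18 inclusion reads. Both exons were thus highest in the double knockdown and at or near their lowest in control and the Ptbp2 knockdown, with intervals of the double knockdown apart from all others.

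The 111-nucleotide Cttn exon (chr7:151636883-151636993, minus strand) encodes one of the actin-binding repeats of cortactin. It was included at 57.8% in control (53.8 to 61.7), 79.8% with the Ptbp1 shRNA (76.0 to 83.1), 45.3% with the Ptbp2 shRNA (41.2 to 49.6) and 66.8% with both (62.7 to 70.6). The 4 intervals did not overlap, so the libraries were ordered Ptbp2 knockdown, control, double knockdown, Ptbp1 knockdown beyond counting error. In the matched transcript 4 exons of this length precede it, and the one directly before it shares 70 of its 111 bases (63.1%). The pair is printed to show how alike the constant and the alternative repeat are, with identical bases in capitals.
Preceding repeat exon: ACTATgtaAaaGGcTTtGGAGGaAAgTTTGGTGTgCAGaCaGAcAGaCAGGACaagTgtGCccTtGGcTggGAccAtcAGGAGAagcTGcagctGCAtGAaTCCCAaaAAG
Alternative repeat exon: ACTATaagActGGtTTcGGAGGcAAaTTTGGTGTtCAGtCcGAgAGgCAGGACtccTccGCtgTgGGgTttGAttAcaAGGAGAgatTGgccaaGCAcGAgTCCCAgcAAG
The other exons of this length shared 27.0%, 64.0% and 60.4% of their bases with it, in order from the first.

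A 15-nucleotide exon of Actr2 (chr11:19998740-19998754, minus strand) was nearly absent in control and the Ptbp2 knockdown, at 0.29% (0.14 to 0.597) and 0.277% (0.108 to 0.709), and was at 2.87% with the Ptbp1 shRNA (2.17 to 3.78) and 20.3% with both shRNAs (18.4 to 22.3). Its junctions were uneven, with 594 and 89 inclusion reads beside 1344 skipping reads in the double knockdown. The 84-nucleotide Cald1 exon (chr6:34697886-34697969, plus strand) was at 63.7%, 53.1%, 76.4% and 69.6%; the interval of each knockdown, 61.2 to 78.2 in the double knockdown, overlapped that of control (56.5 to 70.4), while those of the single knockdowns (44.5 to 61.4 and 69.6 to 83.1) were apart. The 93-nucleotide Zyx exon (chr6:42301269-42301361, plus strand) was at 82.6% in control (80.0 to 84.9), 70.8% with the Ptbp1 shRNA (67.2 to 74.1), 78.5% with the Ptbp2 shRNA (76.3 to 80.6) and 71.7% with both (69.3 to 74.0).

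Just under 10 points lay a 192-nucleotide exon of Srf itself (chr17:46686794-46686985, minus strand), at 81.3%, 77.0%, 91.3% and 77.0%, with the Ptbp2 knockdown (88.4 to 93.5) above control (77.5 to 84.6). A 3381-nucleotide exon of Plec (chr15:76008949-76012329, minus strand) was at 84.3% in control (74.4 to 90.7), 93.5% with the Ptbp1 shRNA (86.5 to 97.0), 84.4% with the Ptbp2 shRNA (73.6 to 91.3) and 92.9% with both (86.0 to 96.5), with overlapping intervals and 6 to 12 skipping reads. Another was the 45-nucleotide exon of Myl6 (chr10:127928776-127928820, minus strand), whose use changes the carboxyl end of the light chain; its first 26 bases were coding in the matched transcript, printed above. It was at 81.2% in control (80.2 to 82.0), 85.6% with the Ptbp1 shRNA (84.6 to 86.6), 72.5% with the Ptbp2 shRNA (71.5 to 73.5) and 72.3% with both (71.2 to 73.4). This was the most deeply read of these exons, with 8768 and 3305 inclusion reads and 1401 skipping reads in control, and the Ptbp2 and double knockdown could not be told apart while both lay below control.

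**Figure D5:**
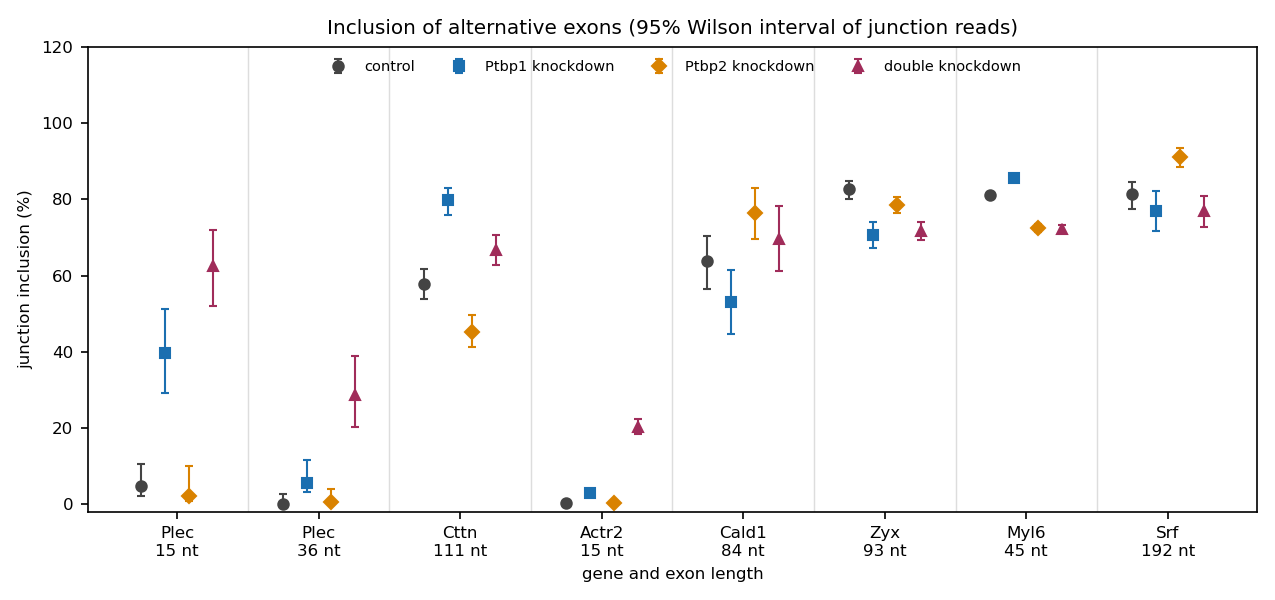
Junction inclusion in percent (y axis) of 8 alternative exons in 7 member genes (x axis, with exon length in nucleotides), 1 point per library with its 95% Wilson interval. The Plec and Actr2 exons are highest in the double knockdown, the Cttn exon in the Ptbp1 knockdown at 79.8%, and the Srf exon in the Ptbp2 knockdown at 91.3%.

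Other genes of the pathway were taken from a list of 141, of which 104 had a mean of at least 1 CPM. In the Ptbp1 knockdown 3 were at least 2-fold lower and 0 higher, and at 1.5-fold 13 were lower and 4 higher, with a median of -0.15; the shares of all genes are those given for the 49 above. The 3 were Flna, which crosslinks filaments (1383 CPM in control and 404, 992 and 338 in the Ptbp1, Ptbp2 and double knockdown), Ect2, which acts in cytokinesis (174, 76.0, 138 and 85.0 CPM in the order above), and the tropomyosin Tpm3 (312, 143, 402 and 141 CPM in the order above). In the double knockdown 6 were 2-fold lower and 0 higher, and at 1.5-fold 18 were lower and 6 higher, with a median of -0.067. Flna was 4.09-fold lower there, the integrin Itgav 2.36-fold, the SRF cofactor Elk3 2.32-fold, Tpm3 2.22-fold and the formin Fmnl3 2.06-fold. In the Ptbp2 knockdown 2 genes were 2-fold higher, the early response genes Fosb (1.08, 1.65, 2.47 and 1.91 CPM in the order above) and Egr2 (0.751, 1.12, 1.63 and 1.56 CPM in the order above), both near 1 CPM in control, and 2 lower, the adhesion proteins Tns1 (25.9, 32.5, 9.35 and 20.2 CPM in the order above) and Parvb (156, 109, 75.7 and 94.3 CPM in the order above). At 1.5-fold 6 were higher and 13 lower there, with a median of -0.024. Within the list, contractile and crosslinking genes held 2 of the 2-fold lower genes in the Ptbp1 knockdown among 18 measured, and nucleation genes 0 of 23.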

How the data were processed

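Poly(A) RNA of 4 N2A libraries, 1 per group, was sequenced strand-specifically as paired reads of 100 bases. Per the submitters' processing notes, CASAVA, TopHat, Cufflinks and mm9 were used; versions are not given in the sources used here. The genes, groups and lists below were chosen with earlier results of these data known.

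The authors deposited FPKM per assembled transcript, with the Cufflinks signal (coverage, mean depth per base) and score per the file headers; the score was read for coordinates only. The deposited SpliceTrap tables hold an inclusion ratio per exon trio (a fraction), counts of reads over its 3 junctions, and a coverage signal per exon, which is 100 times the reads divided by exon size. How reads on the opposite strand or with several matches were counted is not given in the sources used here.

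Trios and assembled transcripts were named through the RefSeq introns and splice sites of the deposited mm9 transcripts, and RefSeq symbols through a table on GRCm38.p6 used for names only. This named 94.4% of cassette trios. Exon reads were taken once per set of exon coordinates, from the trio with the most reads, and summed per gene. Overlapping exons with different coordinates were each counted. Sums were scaled by the median of ratios. Values of log2(CPM + 0.1) were compared for genes with a mean of at least 1 CPM over the 4 libraries. FPKM was multiplied so that FPKM times length summed to the same total in each library, and compared as log2(FPKM + 1) for genes with at least 3 FPKM in 1 of both libraries. Fold changes are on these scales and understate those of low genes. Genes past 1.5-fold or 2-fold were counted without a test. Junction inclusion needed 20 reads. Intervals are 95% Wilson intervals of rounded junction reads and cover counting error only.

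Genes named with values in each library are the members past 1.5-fold by exon reads in at least 1 comparison with control, the actins, Vim, Srf and Mkl1, and members with exons that differ by at least 10 points or lie just under that; Myl6 and Cttn were named with the list. Outside the list, up to 5 genes per direction past 2-fold are named. A gene of the wider list is not reported here and was left out of its counts. Scripts ran in Python 3.11.15 with numpy 2.4.6, pandas 2.3.3 and scipy 1.17.1, and were tested on simulated data. Alternatives covered the scaling, pseudocount, filters, junction reads and thresholds.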

Additional observations from a re-analysis of the deposited data

How the results depend on the processing

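No paired analysis was possible because each group has 1 library, and for the same reason no library could be left out. With total exon reads as the scaling, 3 members in place of 5 passed 2-fold by exon reads in the Ptbp1 knockdown and 3 in place of 6 in the double knockdown, 8 in place of 13 passed 1.5-fold in the double knockdown, and the medians went from -0.437 to -0.222 and from -0.312 to -0.168. With the upper quartile, members past 1.5-fold in the double knockdown were 8 and the median in the Ptbp1 knockdown was -0.321. With junction reads in place of exon reads, 1 member passed 2-fold in the Ptbp2 knockdown in place of 0. With a pseudocount of 5 FPKM, 3 members in place of 6 passed 2-fold by FPKM in the Ptbp1 knockdown, and 2 in place of 4 in the double knockdown. At 10 points in place of 20, member exons numbered 4, 2 and 4 in the Ptbp1, Ptbp2 and double knockdown in place of 2, 0 and 2. Of 266 values of single genes past 1.5-fold over 7 alternatives, 237 stayed past it, 29 dropped under it and 0 changed direction. This total includes leaving out the filter on low genes, which cannot change a value (38 of 38 stayed). With a pseudocount of 1 CPM 38 of 38 also stayed. With total exon reads 11 of 38 dropped under 1.5-fold, with the upper quartile 8 and with junction reads 5. Scaling over genes with a mean of at least 1 CPM dropped 4, and 1 exon per set of overlapping exons dropped 1. Taking 1 exon per set of overlapping exons, and scaling over genes with a mean of at least 1 CPM, were alternatives chosen after seeing the data.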
